A study of Mus musculus with 3 samples.

Results

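The mouse major histocompatibility complex (MHC) on chromosome 17 was examined as all accessible regions lying wholly between positions 33900000 and 37300000 (mm10), chr17:33900000-37300000, in each of 3 ATAC-seq peak lists. Its members were 889 of 182233 regions in the list of 0 h without dTAG, 839 of 178055 in that of 6 h with dTAG and 751 of 145044 in that of 72 h with dTAG. A single 6 h region that crossed the upper limit was left out. The annotation places 281 genes wholly there, of which 171 are protein-coding and 51 are pseudogenes. They include the H2 genes of both MHC classes, so the label fits the position.

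The libraries came from the mouse ECOMG line, a cultured myeloid progenitor, with the genotype FKBP12F36V_NIPBL. FKBP12F36V is a tag that the small molecule dTAG directs to degradation, and NIPBL loads cohesin, the ring complex that extrudes chromatin loops, onto DNA. The 0 h library received no dTAG, while the 6 h and 72 h libraries received it for those times. All libraries shared the tagged genotype, medium with GM-CSF, and β-estradiol, and each was made from 50000 cells. In ATAC-seq a transposase inserts adapters into open DNA, so a region marks a stretch with more insertions than the peak caller's background. There was 1 library per time, so dTAG, culture time and library cannot be told apart, no difference has a replicate check, and no test between times was made. Whether the line is 1 clone, and which MHC haplotype it carries, is not stated in the sources used here.

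MHC class I molecules pair a heavy chain with β2-microglobulin and display peptides from inside the cell to T cells, and MHC class II molecules display peptides from endocytosed protein. In the mouse the segment runs from the H2-K class I genes through the class II genes and the class III genes (complement, TNF family, heat shock proteins) to H2-D and the Q, T and M class I genes, with unrelated housekeeping genes between them. Class I genes are transcribed in most nucleated cells and react to NF-κB and interferon signals, while class II genes are used mainly by dendritic cells, macrophages and B cells and depend on the coactivator CIITA. Myeloid progenitors are the source of some of these antigen-presenting cells.

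The 250 bases before the annotated start are shown for genes on which the results below turn: class I (H2-K1, H2-D1, H2-Q4 and H2-Q10), class II (H2-Aa and H2-Eb1), antigen processing (Psmb9, Tapbp) and Tnf. They are RefSeq sequence of GRCm38.p6, the assembly of mm10, written in the direction of the gene. Capitals mark matches, on either strand, to a κB motif (GGGNNTTCC), an interferon-type motif (TTTCNCTTC), a CRE-type motif (TGACG, or CGTCA on the other strand) and the reverse CCAAT box (ATTGG, or CCAAT). These are the classes of element described at class I promoters, and the last 2 belong to the X2 and Y boxes of class II promoters. The H2-K1 window precedes the start given in the promoter table, which lies inside the annotated span of the gene (up to 34000619). The windows are chr17:34000348-34000597 (minus strand) for H2-K1, chr17:35262844-35263093 (plus) for H2-D1, chr17:35379367-35379616 (plus) for H2-Q4, chr17:35469839-35470088 (plus) for H2-Q10, chr17:34287824-34288073 (minus) for H2-Aa, chr17:34305617-34305866 (plus) for H2-Eb1, chr17:34187331-34187580 (minus) for Psmb9, chr17:33919228-33919477 (plus) for Tapbp and chr17:35202008-35202257 (minus) for Tnf.
H2-K1: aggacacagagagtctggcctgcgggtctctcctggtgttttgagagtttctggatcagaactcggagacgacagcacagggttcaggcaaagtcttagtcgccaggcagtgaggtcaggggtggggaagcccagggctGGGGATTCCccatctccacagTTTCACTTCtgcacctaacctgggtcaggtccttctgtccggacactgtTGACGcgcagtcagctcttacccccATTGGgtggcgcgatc
H2-D1: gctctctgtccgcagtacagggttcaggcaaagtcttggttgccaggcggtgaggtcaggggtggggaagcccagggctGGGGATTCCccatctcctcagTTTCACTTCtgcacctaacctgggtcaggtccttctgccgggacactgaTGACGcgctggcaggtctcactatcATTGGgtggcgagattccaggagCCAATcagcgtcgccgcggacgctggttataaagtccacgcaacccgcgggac
H2-Q4: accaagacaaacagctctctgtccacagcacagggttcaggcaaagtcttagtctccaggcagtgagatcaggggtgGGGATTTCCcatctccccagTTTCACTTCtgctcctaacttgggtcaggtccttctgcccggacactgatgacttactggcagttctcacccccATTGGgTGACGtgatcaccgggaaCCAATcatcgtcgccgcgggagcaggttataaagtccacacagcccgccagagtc
H2-Q10: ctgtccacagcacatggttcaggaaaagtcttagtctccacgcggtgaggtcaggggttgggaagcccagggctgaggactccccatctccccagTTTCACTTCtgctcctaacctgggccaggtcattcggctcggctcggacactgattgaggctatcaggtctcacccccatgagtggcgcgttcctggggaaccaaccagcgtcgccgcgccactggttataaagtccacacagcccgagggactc
H2-Aa: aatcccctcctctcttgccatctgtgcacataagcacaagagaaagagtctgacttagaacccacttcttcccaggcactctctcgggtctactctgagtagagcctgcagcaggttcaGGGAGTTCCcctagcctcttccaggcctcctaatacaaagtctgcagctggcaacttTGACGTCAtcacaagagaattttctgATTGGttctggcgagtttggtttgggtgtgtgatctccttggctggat
H2-Eb1: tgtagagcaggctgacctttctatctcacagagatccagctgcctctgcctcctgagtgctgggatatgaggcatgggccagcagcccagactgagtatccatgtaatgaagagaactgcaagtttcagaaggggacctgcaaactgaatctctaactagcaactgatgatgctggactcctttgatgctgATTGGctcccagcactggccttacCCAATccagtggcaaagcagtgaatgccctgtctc
Psmb9: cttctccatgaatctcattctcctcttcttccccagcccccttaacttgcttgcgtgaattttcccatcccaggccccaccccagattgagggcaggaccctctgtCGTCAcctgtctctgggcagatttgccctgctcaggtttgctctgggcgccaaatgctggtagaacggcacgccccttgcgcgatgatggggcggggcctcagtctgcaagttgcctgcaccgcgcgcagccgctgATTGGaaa
Tapbp: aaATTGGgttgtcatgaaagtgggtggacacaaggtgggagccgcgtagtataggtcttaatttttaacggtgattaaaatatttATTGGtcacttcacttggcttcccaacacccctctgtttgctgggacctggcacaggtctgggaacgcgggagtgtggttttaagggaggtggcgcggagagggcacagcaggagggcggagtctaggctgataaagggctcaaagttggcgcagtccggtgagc
Tnf: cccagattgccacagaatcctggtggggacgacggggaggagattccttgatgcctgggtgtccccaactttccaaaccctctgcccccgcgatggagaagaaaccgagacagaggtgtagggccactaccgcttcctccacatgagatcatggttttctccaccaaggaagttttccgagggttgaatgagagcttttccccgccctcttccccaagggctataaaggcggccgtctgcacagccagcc

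H2-K1, H2-D1 and H2-Q4 each held all 4 motifs. From the first base of the κB match, the interferon-type, CRE-type and CCAAT matches began 21, 70 and 95 bases further on in H2-K1 and at the same distances in H2-D1, whereas in H2-Q4 they began 20, 100 and 94 bases on. H2-Q10, a class I gene, held the interferon-type match alone. In H2-Aa the CRE-type match was a palindrome read on both strands. H2-Eb1 held 2 CCAAT matches and no other, Tapbp likewise held CCAAT matches alone, and Tnf held no match to these 4 motifs. Among all 27025 promoter windows of the table, 4.88% held the κB motif, 2.03% the interferon-type, 17.9% the CRE-type and 34.5% the CCAAT motif. Among the 22 class I windows of the segment 5, 7, 10 and 19 held them, and among the 8 class II windows 2, 0, 1 and 7. A match describes letters in this window and shows no binding.

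The segment was densely accessible and most of it was found in each list. At 0 h, 6 h and 72 h its regions covered 197.4, 192.3 and 166.3 kb, at a median length of 144, 150 and 156 bp. They made up 0.488%, 0.471% and 0.518% of the lists. The fold, the authors' own value for the height of a region over the caller's background, had a median of 8.32, 9.80 and 12.5 in the segment, beside 6.80, 7.54 and 9.37 over all regions. A fold depends on its library and is used here to describe, rank or filter regions within a list. When overlapping regions of the 3 lists were joined into stretches, 531 of 1070 stretches in the segment were present in all 3 (49.6%, exact 95% interval 46.6 to 52.7), against 41.3% of stretches genome-wide and 41.7% on the rest of chromosome 17. Stretches listed at 0 h and 6 h but not at 72 h made up 10.56% in the segment, against 15.1% genome-wide. Those listed at 72 h alone made up 7.29%, against 10.0%.

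The region count at 72 h was 0.845 times that at 0 h (0.766 to 0.932), and at 6 h 0.944 times (0.858 to 1.04). The whole lists gave 0.796 and 0.977. Intervals here and below cover counting error only and treat the counts as independent, although most regions recur between lists. The direction at 72 h depended on region height. In the segment 378 regions had a fold of 10 or more at 0 h, 412 did at 6 h and 415 at 72 h, a 72 h over 0 h ratio of 1.098 (0.953 to 1.27) beside 1.08 genome-wide. Regions of fold 20 or more numbered 242, 255 and 275. With each list cut to the length of the shortest, the segment held 746, 720 and 751 regions, so the lower total at 72 h was not seen in lists of equal size. In bulk libraries, fewer open cells and less opening per cell cannot be told apart.

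**Figure D1:**
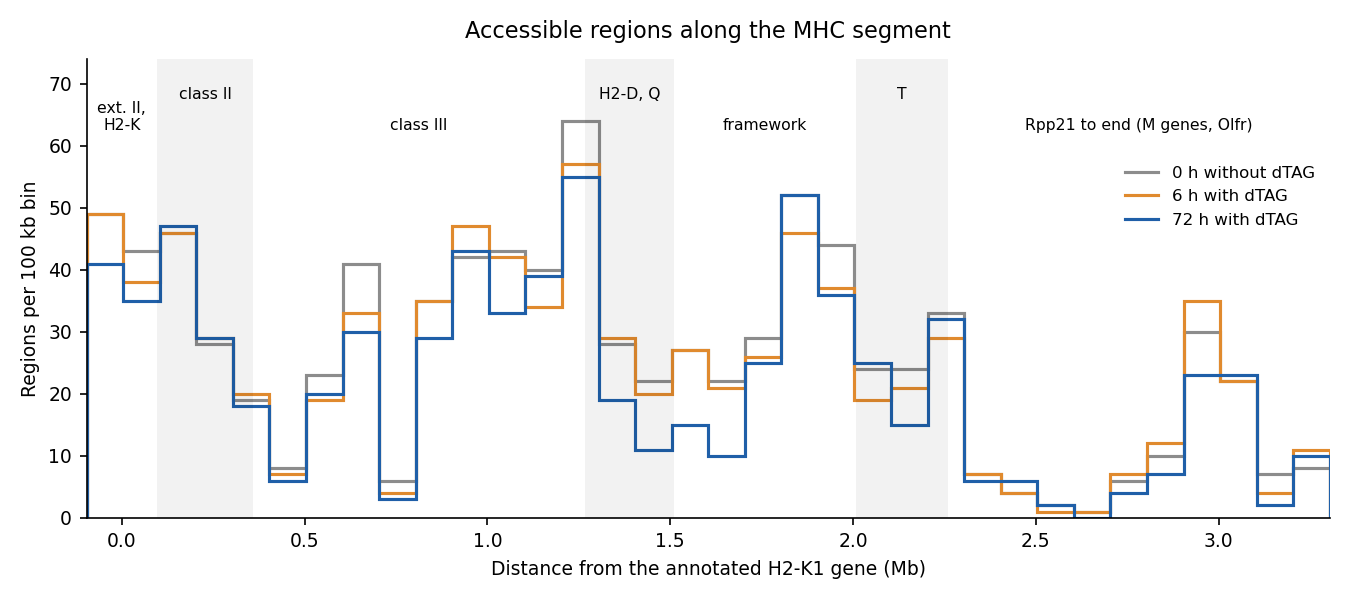
Accessible regions per 100 kb bin along the segment, against the distance from the annotated H2-K1 gene in Mb, with 1 line per library and alternate shading for the 7 zones. Bins over the class II genes hold like counts in the 3 lists, and the 72 h line runs below the others over H2-D, the Q genes and the first framework genes.

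The word strong is used for regions at or above the median −log10 q, the caller's adjusted significance, of the list they belong to. In the segment 537, 512 and 435 regions were strong at 0 h, 6 h and 72 h. A strong region of 0 h counted as lost if no later region shared 1 bp with it, and a strong later region counted as gained if no region of 0 h did. At 6 h, 7 of 537 strong regions were lost (1.30%, 0.526 to 2.67), beside 2.48% genome-wide, and 11 of 512 were gained (2.15%, 1.08 to 3.81), beside 1.71% genome-wide. At 72 h, 53 of 537 were lost (9.87%, 7.48 to 12.7), beside 15.7% genome-wide and 13.45% in the most gene-dense of 3 equal classes of 1 Mb bins outside the segment. At the same time 21 of 435 were gained (4.83%, 3.01 to 7.29), beside 7.21% and 6.54% in those sets. The intervals for losses at 72 h lay below both genome values, and the interval for gains reached the genome-wide value. All bins of the segment belong to that class. Because the −log10 q cutoffs were 7.82, 9.25 and 13, a gained region met a stricter cutoff than a lost one. The shares depended on the setting: the share lost at 72 h was 4.67% with lists of equal size, 6.35% with strong set at a −log10 q of 10 and 16.1% with regions of fold 10 or more in both lists, where the genome-wide shares were 8.79%, 10.53% and 23.98%. The share lost at 6 h was 0.234%, 0.438% and 5.29% under the same settings. With fold 10 or more in both lists, 12.4% were gained at 6 h and 18.6% at 72 h.

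With regions of any strength, 198 of 889 were lost at 6 h (22.3%), beside 23.4% genome-wide, and 155 of 839 were gained (18.5%), beside 21.8%. At 72 h, 287 of 889 were lost (32.3%, 29.2 to 35.5), beside 40.2%, and 114 of 751 were gained (15.2%, 12.7 to 17.9), beside 22.8%. Most of the absent regions were weak: 234 of 352 weak regions of 0 h had no partner at 72 h (66.5%, 61.3 to 71.4). This share was near the 68.9% of weak regions genome-wide and the 66.9% in the gene-dense class. Within 1 kb of a coding start, 11 of 157 strong regions were lost at 72 h (7.01%, 3.55 to 12.2), and farther away 42 of 380 (11.1%, 8.08 to 14.6), intervals that overlap. Gains at 72 h numbered 2 of 143 near starts (1.40%, 0.170 to 4.96) and 19 of 292 farther away (6.51%, 3.96 to 9.97). No genome-wide share of the same split stands beside these values. Whether the difference by distance is particular to the segment was therefore not tested.

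The losses were spread unevenly along the segment. Zones were cut at landmark genes and are not sets of 1 gene class. The zone of H2-D and Q, from the H2-D1 span to the base before Pou5f1 (chr17:35263094-35506031), held 66, 67 and 43 regions at 0 h, 6 h and 72 h. The 72 h over 0 h ratio was 0.652 (0.433 to 0.971). That interval includes the 0.796 of the whole lists. Of its 37 strong regions at 0 h, 9 were lost at 72 h (24.3%, 11.8 to 41.2), an interval that includes the genome-wide 15.7%. At 6 h it had gained 5 of 38 (13.2%, 4.41 to 28.1), beside 1.71% genome-wide. Placement of reads among the similar Q genes is uncertain in these counts. The class II zone lay at the other end of the range, with 91, 91 and 94 regions and 1 of 61 strong regions lost at 72 h (1.64%, 0.0415 to 8.80). It spans chr17:34092379-34354788 and also holds Brd2, Tap1, Tap2, Psmb8 and Psmb9. The class III zone, the longest run of genes, held 295, 268 and 251 regions and lost 16 of 179 strong ones (8.94%, 5.196 to 14.1). It begins at Btnl2 and ends at 35263093, so the stretches upstream of H2-D1 count there. The framework zone from Pou5f1 to Gnl1 held 177, 160 and 142, the zone of extended class II and H2-K genes 85, 83 and 70, and the T region 71, 59 and 56. The stretch from Rpp21 to the upper limit, with the M class I genes and olfactory receptor genes, held 104, 111 and 95 over 1044 kb, the sparsest of the 7 zones. The intervals of H2-D and Q and of class II for losses at 72 h did not overlap each other, though zones were compared as seen and without a test.

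**Figure D2:**
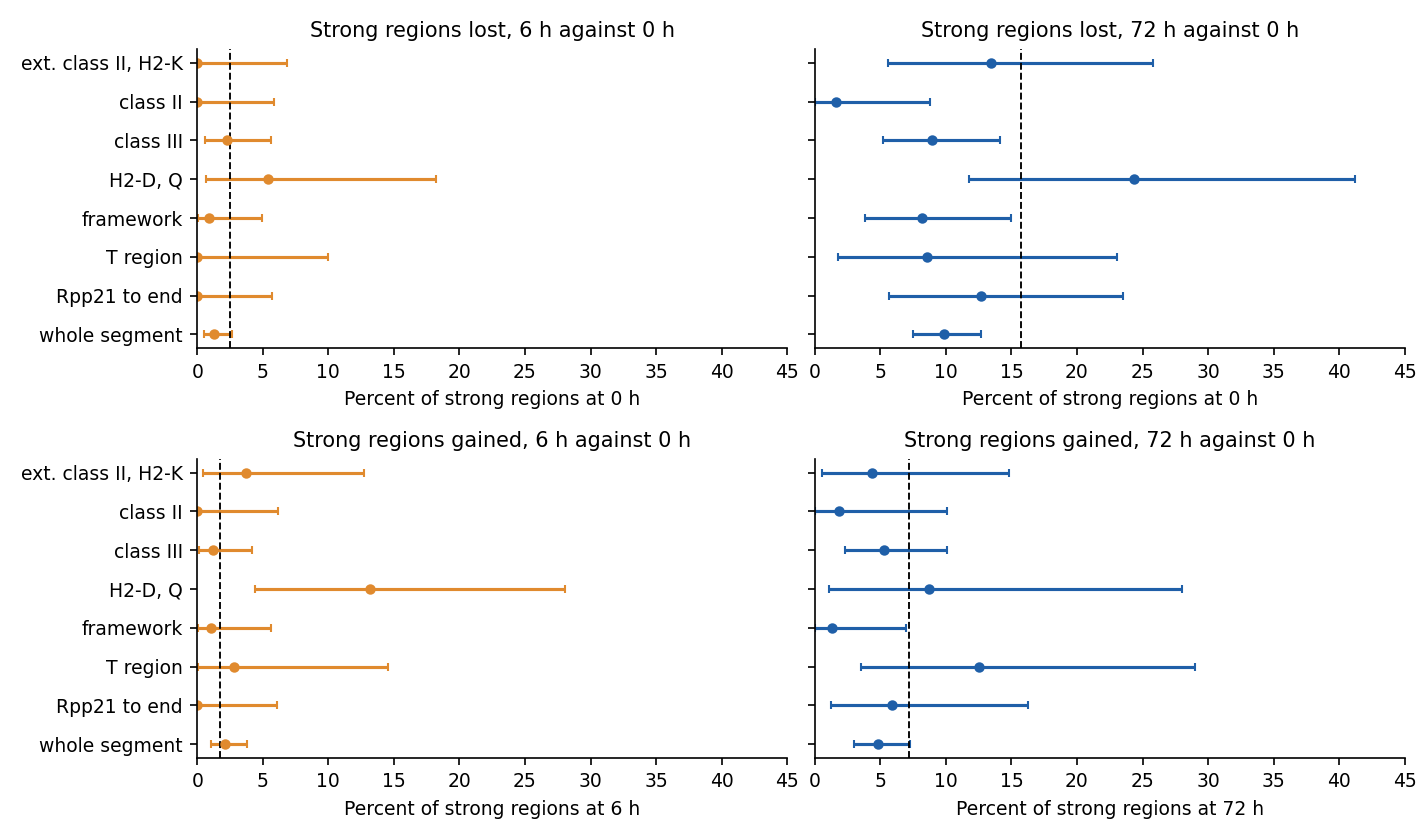
Percent of strong regions lost (upper panels) and gained (lower panels) at 6 h and 72 h against 0 h, for the 7 zones and the whole segment, as points with exact 95% intervals; the dashed line is the genome-wide percent. At 72 h the class II zone lost 1.64% of strong regions, with an interval below the genome-wide 15.7%. The zone of H2-D and Q lost 24.3%, with an interval that includes the genome-wide percent.

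The classical class I genes were open at their starts in every list. H2-K1 and H2-D1 encode the heavy chains that present peptides to cytotoxic T cells. Over the H2-D1 start the 0 h, 6 h and 72 h regions had folds of 200, 225 and 296, and over the H2-K1 start 113, 142 and 159. To compare heights across lists, the start regions of the 9140 coding genes open in all 3 lists were ranked within each list. H2-D1 stood at percentile 99.2, 98.6 and 99.6 and H2-K1 at 77.9, 81.4 and 82.0. Both starts thus kept near ranks over the 3 lists, with H2-D1 near the top of all starts. Within 10 kb of the genes, region counts were lower at 72 h than at 0 h at each of the 3 loci: 16 against 24 at H2-D1, 9 against 10 at H2-K1 and 6 against 12 at the pseudogene H2-K2. Of fold 10 or more, the 3 loci together held 15, 19 and 19 regions at 0 h, 6 h and 72 h. The 72 h over 0 h ratio was 0.674 (0.413 to 1.09) for all regions and 1.27 (0.610 to 2.68) for the high ones. Over the loci of all protein-coding genes these ratios were 0.846 and 1.12, inside both intervals. The opposite directions of the 2 counts were thus seen over all coding loci as well.

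Upstream of H2-D1 the highest regions of the lists differed by site. The stretch chr17:35258930-35259655, centred 3802 bp before the H2-D1 start, had a fold of 202, 250 and 249.0, and stayed above percentile 99.7 of the 98083 stretches present in all 3 lists. The stretch chr17:35257388-35257721, 5540 bp before the start, had a fold of 15.9, 27.1 and 148. It stood at percentile 55.3, 71.1 and 97.1. Another, chr17:35255634-35255775, 7390 bp before the start and closer to the end of the RNA helicase gene Ddx39b, had a fold of 9.07, 13.6 and 86.7 and a percentile of 33.0, 46.9 and 91.1. Both of these ranked higher at 6 h than at 0 h and higher again at 72 h. Of the stretches between and beside them, chr17:35258206-35258645 stood at percentile 94.3, 95.7 and 93.5 and the lower chr17:35257950-35258136 at 21.1, 5.13 and 9.27, and low regions at chr17:35257285-35257341, chr17:35256532-35256661 and chr17:35254496-35254671 were absent at 72 h. Beyond the gene, the stretch chr17:35274396-35275074 had a fold of 57.5, 53.5 and 25, and its percentile was 66.3 at 72 h against 89.2 at 0 h. Genome-wide, 16.3% of stretches ranked more than 20 points higher at 72 h than at 0 h, and 16.1% more than 20 points lower.

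**Figure D3:**
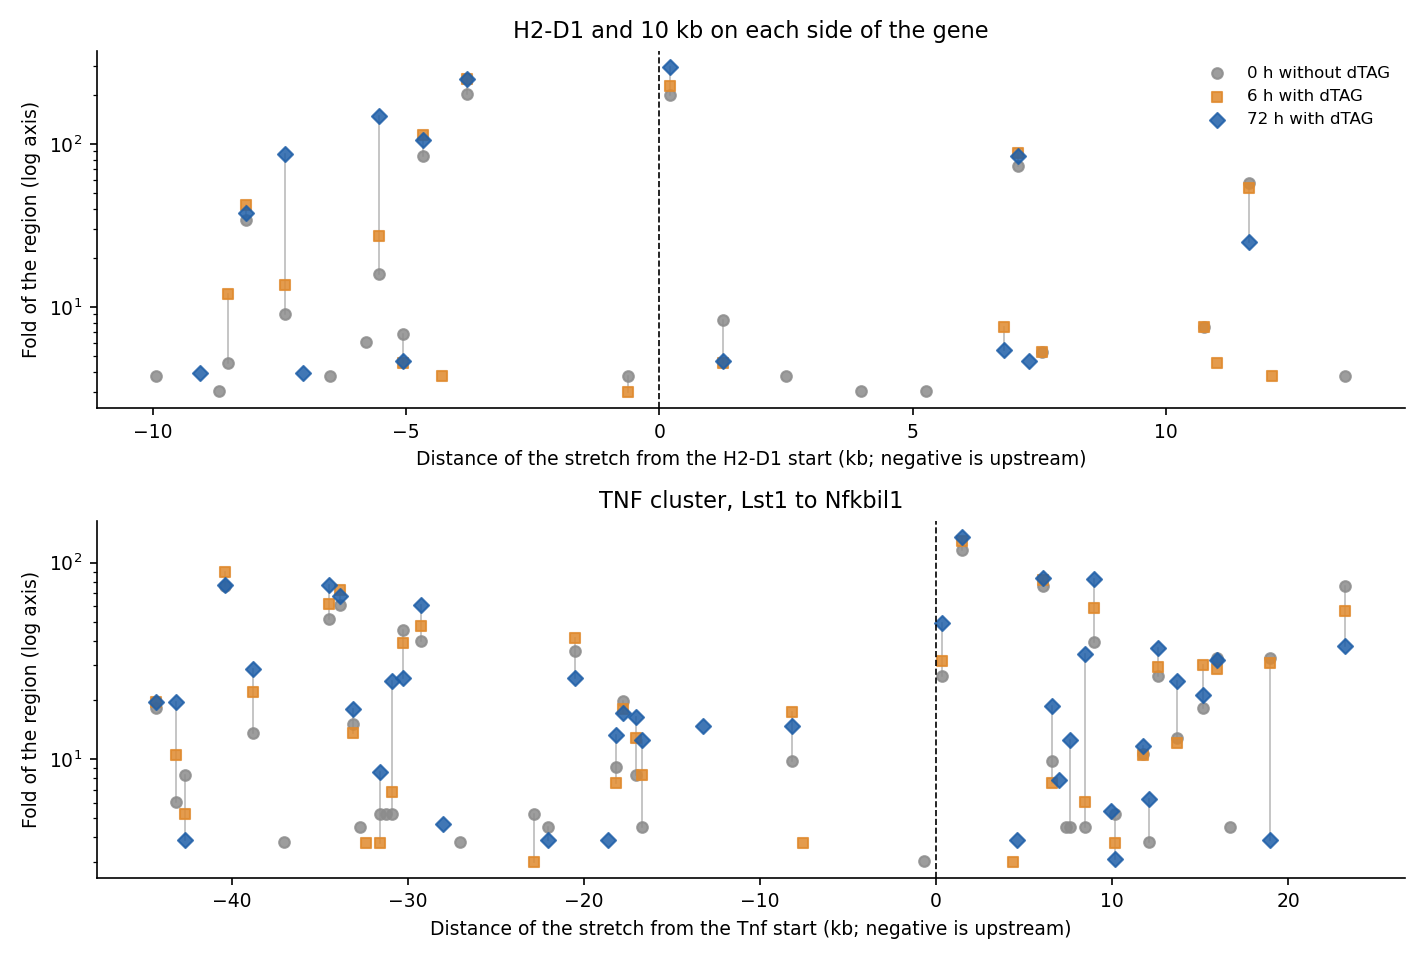
Fold of each stretch (log axis) against its distance in kb from the H2-D1 start (upper panel) and from the Tnf start (lower panel), with 1 symbol per library and a grey line joining the libraries of a stretch. At 5540 and 7390 bp before H2-D1 the 72 h symbols (148 and 86.7) lie far above those of 0 h (15.9 and 9.07), while the start itself lies near 200 to 296 in all 3.

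Among the Q genes, nonclassical class I genes, all regions within 10 kb numbered 40, 40 and 24 (72 h over 0 h 0.600, 0.346 to 1.02), beside a ratio of 0.846 over the loci of all protein-coding genes. Of fold 10 or more there were 16, 20 and 11. The start regions themselves were retained: H2-Q4 had a fold of 85.4, 98.0 and 104 at percentile 60.1, 59.0 and 59.1, H2-Q7 stood at 21.2, 18.3 and 24.9, and H2-Q10 at 10.33, 12.5 and 15.1. H2-Q6 differed, at 53.3, 51.7 and 39.5. Other regions near these genes were missing at 72 h. The highest lost region of the segment, chr17:35465753-35465839, lay 4293 bp before the H2-Q10 start with a fold of 21.2 at 0 h. The next lay 3295 bp into H2-Q4 (chr17:35382843-35382981, fold 15.9), and another 2204 bp into H2-Q2 (chr17:35344480-35344543, fold 12.9). H2-Q1 and H2-Q10 each had 3 strong regions lost at 72 h, and with Vps52, a vesicle-tethering gene near H2-K, they led the segment. Locus counts at 72 h and 0 h were 6 and 14 at H2-Q10, 5 and 11 at H2-Q1, 1 and 3 at H2-Q2, and 7 and 5 at H2-Q4. Q and T genes closely resemble one another in sequence, so the placement of reads among them is uncertain in all these counts.

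In the T region, H2-T23 encodes Qa-1, the nonclassical molecule seen by NKG2 receptors of natural killer cells. Its start region had a fold of 34.0, 39.9 and 70.3. With a percentile of 40.6 at 72 h against 18.1 at 0 h, it had the largest upward difference among the 87 segment genes whose start was open in all 3 lists. The neighbouring H2-T22, whose start lies in a region shared with Gm6034, stood at 69.6, 63.6 and 62.4. Near H2-T24, 2 strong regions were gained at 72 h, of which the higher (chr17:36015791-36016015) had a fold of 21.1. Loci of the T list held 43, 36 and 39 regions. Among the M genes, H2-M3, which presents formylated peptides, was the single gene with an open start, at percentile 28.2, 28.6 and 26.6. None of the 6 H2-M10 genes, 9 olfactory receptor genes or 4 butyrophilin-like genes had a region at its start in any list. The highest gained region of the segment at 72 h, chr17:36504064-36504182 with a fold of 24.2, lay 41794 bp from the H2-M10.4 start.

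The class II loci formed the one list in the segment with more regions at 72 h than at 0 h, with 74, 76 and 81 in time order (72 h over 0 h 1.09, 0.789 to 1.52). The interval includes the 0.846 of all coding loci, and the direction depended on the width of the locus: with 50 kb on each side the list held 123 at 72 h against 130 at 0 h (0.946). With 2 kb on each side the M list also held more at 72 h, 10 against 9. With 10 kb on each side, the count was higher at 72 h at 8 of the 11 class II loci. At H2-Oa it was lower (13 against 16), and at H2-Pb and H2-Ab1 it was equal. The loci with more, each at 72 h against 0 h, were H2-DMa (22 against 19), H2-DMb2 (10 against 9), H2-DMb1 (9 against 8), H2-Ob (8 against 6), H2-Aa (7 against 5), H2-Eb1 (8 against 7), H2-Eb2 (7 against 6) and H2-Ea (5 against 4). DM and DO proteins load and edit the peptides of class II molecules, and the Ab1, Aa and Eb1 products are class II chains. These loci adjoin, so a region can count at more than 1 of them, and the list total counts it once.

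Class II start windows held regions of modest height. The window used for H2-DMa led with a fold of 66.5, 75.4 and 72.6, at percentile 43.9, 43.4 and 42.0. The annotated span of H2-DMa (from 34119693) begins inside that of Brd2 (up to 34122814), so this value cannot be assigned to H2-DMa alone. A region farther into the H2-DMa span, chr17:34135299-34135862, was higher, with a fold of 147, 173 and 235. It stood at percentile 99.0, 98.9 and 99.6 of shared stretches. The nearest start window, that of H2-DMb2, lay 9669 bp away. Whether this region marks another start of H2-DMa was not tested. The start of H2-Aa had a fold of 21.2, 28.6 and 27.3, that of H2-Ob 14.4, 13.6 and 27.3, and that of H2-DMb1 21.2, 18.1 and 22.6. H2-Eb1 went the other way, with a fold of 37.0, 17.3 and 17.2, and at percentile 20.1, 7.0 and 9.4 it had the largest downward difference at 6 h among segment starts. H2-Eb2 had a start region of fold 6.80 and 8.29 at 0 h and 6 h and none at 72 h, H2-Oa had none at 0 h, and H2-DMb2 had one at 6 h alone.

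Some stretches beside the class II chain genes stood higher at 72 h than at 0 h. At H2-Ab1 the stretch chr17:34257616-34257970, 5257 bp outside the gene span, had a fold of 21.2, 16.6 and 79.6, and its percentile was 89.8 at 72 h against 65.6 at 0 h. The stretch that reaches the H2-Ab1 span (from 34263227), chr17:34263076-34263230, differed less. Its fold was 19.7, 17.3 and 21.1, at percentile 63.1, 56.3 and 61.5. At H2-Aa the stretch chr17:34293414-34293913, 5591 bp upstream of the span, had a fold of 30.2, 27.9 and 58.5 and a percentile of 84.9 at 72 h against 76.2 at 0 h. At H2-Eb1 the stretch chr17:34304785-34305075, 792 bp upstream of the span, had a fold of 16.6, 18.8 and 46.1 and a percentile of 80.5 at 72 h against 57.1 at 0 h. The start region of H2-Eb1, chr17:34305710-34305876, was the next stretch along. It lay at percentile 55.2 at 72 h against 81.0 at 0 h among all stretches, so adjacent sites of this gene differed in opposite directions. Others stood lower. The stretch chr17:34291697-34291869, the highest near H2-Aa at 0 h, had a fold of 34.0, 36.2 and 21.9 and a percentile of 62.6 at 72 h against 79.1 at 0 h. Beyond H2-Eb1, chr17:34317420-34317531, 746 bp outside its span, stood at percentile 4.21 at 72 h against 29.3 at 0 h. The start region of H2-Eb2, chr17:34325518-34325681, was absent at 72 h, as given above. Near H2-DMb1, chr17:34164599-34164771 had a fold of 25.7, 18.1 and 4.68. These stretches were picked for their values and are a description.

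The 5 antigen-processing genes inside the segment had fewer regions at 72 h than at 0 h at each locus. Tap1 and Tap2 form the peptide transporter, Psmb8 and Psmb9 are immunoproteasome subunits, and Tapbp (tapasin) holds class I molecules at the transporter. At 72 h against 0 h the loci held 15 and 20 regions at Tap1, 16 and 21 at Tap2, 15 and 20 at Psmb8, 8 and 9 at Psmb9, and 13 and 16 at Tapbp. Tap1, Psmb8 and Tap2 adjoin and share most of these regions, and the list as a whole held 44, 42 and 35 (72 h over 0 h 0.795, 0.495 to 1.27), near the 0.846 of all coding loci. Of fold 10 or more it held 20, 20 and 23 (1.15, 0.604 to 2.21), near the 1.12 of all coding loci. Psmb9 and Tap1 are transcribed outward from a shared start region of fold 93.0, 108 and 105, at percentile 65.0, 64.9 and 59.9. Tapbp had a start fold of 99.8, 134 and 83.5, and its percentile of 48.1 at 72 h against 69.6 at 0 h was among the larger downward differences. The weak Psmb8 start region (fold 4.54 and 4.52 at 0 h and 6 h) was absent at 72 h.

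Genes of the class I and II pathway elsewhere in the genome give the setting. Around 20 such genes there were 238, 236 and 236 regions, and 107, 114 and 137 of fold 10 or more. The 72 h over 0 h ratios were 0.992 (0.825 to 1.19) and 1.28 (0.987 to 1.66). Both intervals include the values over all coding loci, 0.846 and 1.12. B2m, which encodes β2-microglobulin, stood at start percentile 65.5, 56.3 and 72.0. Of the 15 with a ranked start, 9 stood higher and 6 lower at 72 h than at 0 h, beside 4930 higher and 4206 lower among all 9140. All 10 myeloid marker genes, among them Mpo, Elane, Cebpa and Spi1, had a region within 1 kb in each list. Of the 10 markers of other lineages, Hba-a1 had none at any time and Pax5, of B cells, had 15, 10 and 1; the part of other cell types in the results was not tested.

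**Figure D4:**
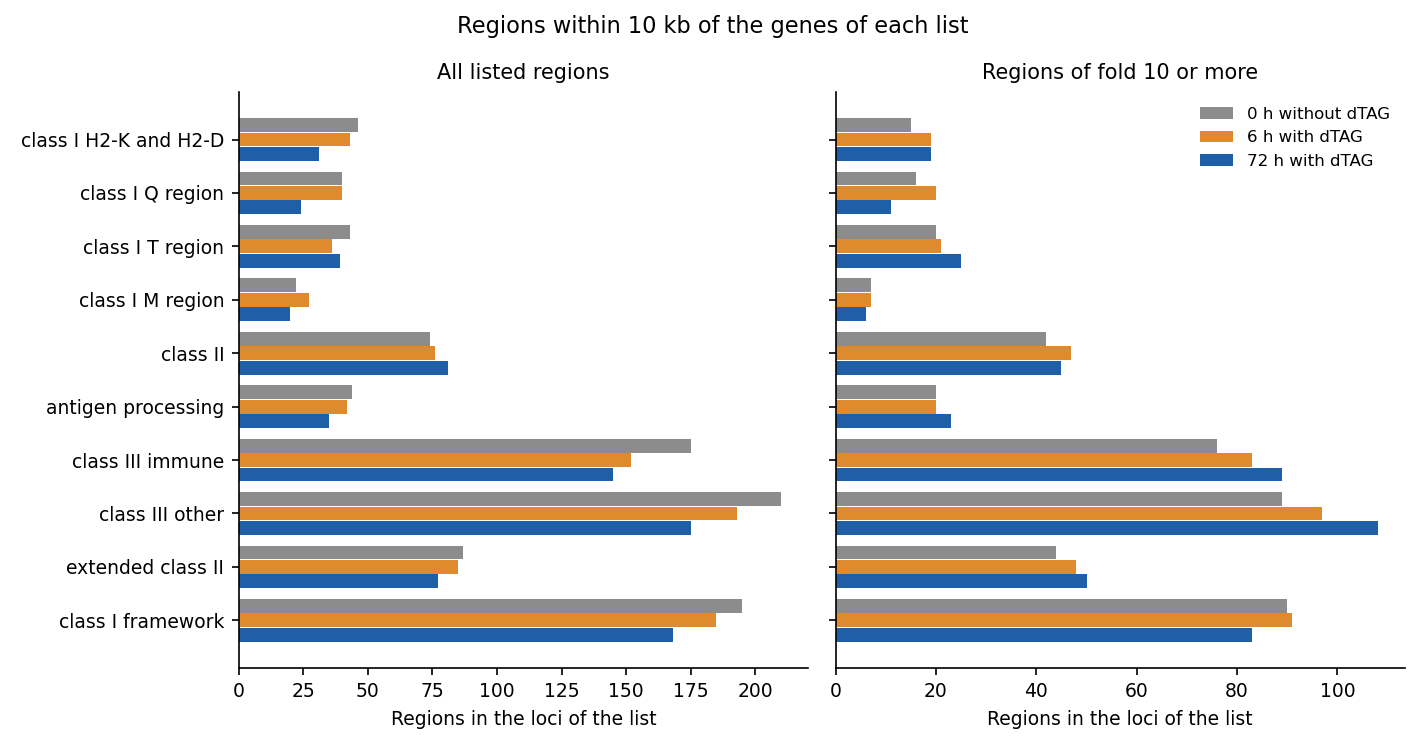
Number of regions within 10 kb of the genes of each list of the segment, for all listed regions (left) and for regions of fold 10 or more (right), with 1 bar per library. The class II list held 74, 76 and 81 regions and the Q list 40, 40 and 24. In 5 of the 10 lists (H2-K and H2-D, antigen processing, both class III lists and extended class II) the 72 h bar is the shortest on the left but not on the right.

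The class III immune genes encode complement components, TNF-family cytokines, Hsp70 proteins and Ly6 proteins. Their 23 loci held 175, 152 and 145 regions (72 h over 0 h 0.829, 0.660 to 1.04), and 76, 83 and 89 of fold 10 or more (1.17, 0.853 to 1.61). Over all coding loci these ratios were 0.846 and 1.12, inside both intervals. By locus, 18 held fewer regions at 72 h than at 0 h, 1 held more and 4 held as many. Hspa1b was the locus with more, at 15 against 11. Tnxb, an extracellular-matrix gene, stood out among the others with 7 against 17. The complement loci held few regions, at 72 h against 0 h none and 1 at C4b, 7 and 10 at C4a, 4 and 5 at Cfb, and 8 and 8 at C2, with C4a and C4b near-identical copies. Notch4 held 18 and 22, Hspa1a 8 and 10, Hspa1l 7 and 11, Mpig6b 6 and 9, Aif1 10 and 12, and Ager 17 and 17. Of the Ly6 genes, Ly6g6c held 7 and 12, Ly6g6d 8 and 13, Ly6g6e 5 and 6, Ly6g5c 6 and 7 and Ly6g5b 9 and 11.

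Where a class III immune gene had a start region in all lists, it ranked higher at 72 h than at 0 h for 8 of 9 genes, at a median difference of 5.32 percentile points, beside 0.684 over all 9140 genes. Hspa1a and Hspa1l share a region and count as 2 of the 9, and copies of Hspa1a and Hspa1b are near-identical. The start of Tnf, the inflammatory cytokine gene, had a fold of 26.5, 31.6 and 49.2, at percentile 13.7, 15.0 and 27.4. Ly6g5b stood at 15.4, 19.7 and 28.5, Hspa1b at 29.6, 35.2 and 38.6, and Nfkbil1 at 39.3, 41.3 and 44.6. Notch4 was the exception, at 2.4, 3.1 and 1.6. Lta and Aif1 had no start region in any list.

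Around the TNF cluster, from Lst1 to Nfkbil1 with 10 kb on each side (71.4 kb), the lists held 51, 40 and 48 regions, and 23, 26 and 33 of fold 10 or more. Over all coding loci the 72 h over 0 h ratios of these 2 counts were 0.846 and 1.12. The cluster was singled out after its values were seen. Its loci at 72 h against 0 h were Lst1 with 18 and 18 regions, Ltb with 19 and 20, Tnf with 17 and 17, Lta with 12 and 13, Nfkbil1 with 27 and 28 and Ncr3-ps with 15 and 17. Of the 32 stretches in all 3 lists, 19 ranked higher and 13 lower at 72 h, with a median difference of 3.06 points beside -0.917 over all stretches. More than 20 points separated the ranks upward at 8 and downward at 2 of the 32, beside 16.3% and 16.1% of stretches genome-wide. A stretch 984 bp before the Ltb start, chr17:35193411-35193636, had a fold of 4.54, 6.03 and 34.3 and the largest upward rank difference in the segment. In the opposite direction, chr17:35182927-35183130, inside the span of the pseudogene Ncr3-ps and 1965 bp from Lst1, had a fold of 32.5, 30.9 and 3.90, the largest downward one. Both extremes of the segment lay in this cluster, which adds no support because the cluster was chosen with these values known.

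Among the other class III genes, mostly housekeeping, the starts went the other way: 15 of 20 ranked lower and 5 higher at 72 h than at 0 h, at a median of -3.95 points. Over all 9140 genes 4206 ranked lower and 4930 higher, at a median of 0.684. Starts of the 2 class III lists are not all separate: Atp6v1g2 here and Nfkbil1 of the immune list took the same 72 h region (fold 77.3). Msh5, a meiotic mismatch-repair family gene, had a start fold of 138, 168 and 103 at percentile 89.6, 90.5 and 58.6. Ppt2, a lysosomal thioesterase gene, stood at 58.3, 60.9 and 23.2, the locus D17H6S56E-5 at 50.6, 53.6 and 21.8, and Bag6, a chaperone gene, at 45.2, 50.6 and 25.7. In the framework zone the shared start region of Tcf19 and Cchcr1 showed the largest downward difference of all segment starts, with a fold of 121, 150 and 76.5 and percentile 81.8, 84.5 and 44.2. Each of these ranked as high or higher at 6 h than at 0 h, so the lower ranks belong to the 72 h list. Ier3, an immediate-early gene, followed the same order at 67.8, 75.6 and 51.5. In the upward direction Trim26 stood at 58.3, 68.3 and 75.2 and Fkbpl at 72.3, 76.4 and 85.6.

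**Figure D5:**
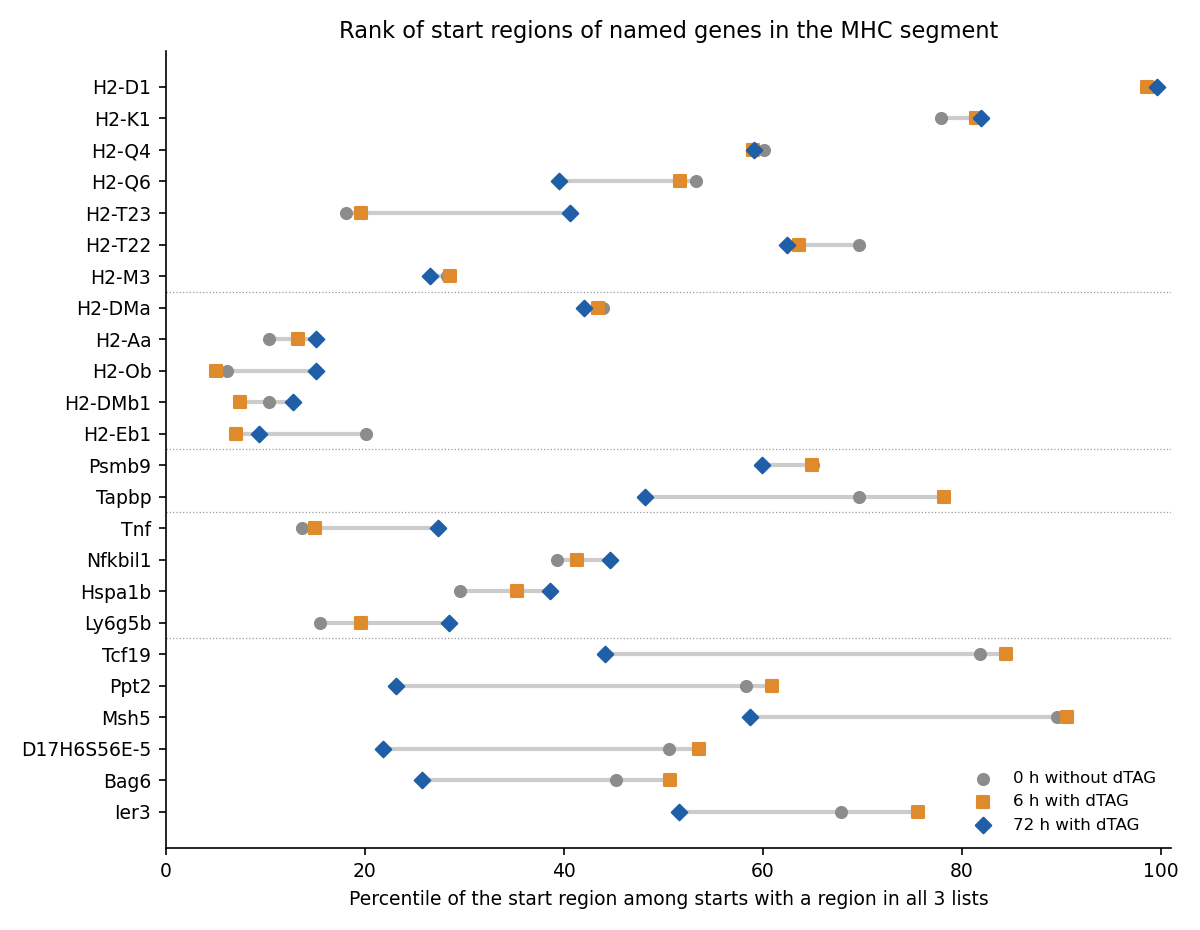
Percentile of the start region of 24 segment genes among the 9140 starts open in all 3 lists, 1 symbol per library, grouped from top to bottom as class I, class II, antigen processing, class III immune and other genes. H2-T23 and Tnf lie higher at 72 h than at 0 h, while Tapbp, Tcf19, Ppt2, Msh5 and D17H6S56E-5 lie lower.

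Across the 150 coding genes of the segment with a known start window, 91 starts were open at 0 h (60.7%), 93 at 6 h (62%) and 89 at 72 h (59.3%), beside 56.0%, 56.0% and 53.1% of all 17491. Of the 91 open at 0 h, 3 had no region in the start window at 72 h (3.30%), beside 6.31% genome-wide. Those were H2-Eb2, Psmb8 and the predicted gene Gm10499, though at Psmb8 a region just past the window was present in all 3 lists. Ltb, open at 0 h, lacked a start region at 6 h and had one of fold 12.5 at 72 h. Starts differed in base composition: the 87 open in all 3 lists had a median of 14 CpG pairs in the 250 bases upstream and 57.6% GC, and the 55 open in none had 2 and 50%. Among the 87, 43 ranked higher and 44 lower at 72 h than at 0 h, with a median difference of -0.323 points beside 0.684 genome-wide.

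The highest region of the segment lay far from any coding start. At 0 h it covered chr17:36231136-36231650, 24023 bp from Rpp21, with a fold of 1420, 1472 and 585, and stayed above percentile 99.9 of shared stretches. Next came the start of Gpsm3, a G-protein regulator gene of blood cells, with a fold of 398, 510 and 521. The other 8 of the 10 highest regions at 0 h lay at or near H2-D1 (2 regions), Agpat1, Ppp1r10, Mdc1, H2-DMa, Prrc2a and Atf6b. The H2-DMa one, chr17:34135299-34135862, had a fold of 147, 173 and 235. Of the 5 largest upward rank differences at 72 h, those not yet given lay within Abhd16a (fold 3.78, 9.80 and 28.1), 834 bp before Hspa1b (6.05, 5.27 and 42.2) and within Nfkbil1 (5.29, 6.78 and 25). The downward ones lay near Gm9573 (32.5, 30.1 and 5.46), within D17H6S56E-5 (46.9, 42.2 and 8.59) and within Mdc1 (16.6, 17.3 and 3.90). Over all 531 shared stretches, 69 ranked more than 20 points higher and 74 more than 20 points lower at 72 h than at 0 h. These are 13% and 13.9% of the 531, beside the 16.3% and 16.1% genome-wide.

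At 6 h few strong regions differed. The 7 lost ones had folds of at most 9.83 and included 2 at H2-Q10, of which the higher (chr17:35470978-35471034) lay 917 bp into the gene. Prrc2a and Ppp1r10 each held 1 more, and another lay 7123 bp outside Hspa1b, its nearest gene. The 11 gained ones included 3 nearest H2-D1, and others near Gm7030 (fold 13.6), H2-Q7 (fold 12.8, 4183 bp before the start) and Ddx39b (fold 10.55). Rank differences over 20 points between 6 h and 0 h were found at 14 stretches upward and 28 downward of 531, which are 2.64% and 5.27%, beside 4.21% and 4.45% genome-wide. The largest upward one lay 748 bp into Agpat1 (fold 7.56 at 0 h, 20.3 at 6 h and 13.3 at 72 h) and the largest downward one 9612 bp from Rpp21 (17.4, 6.78 and 10.9).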

How the data were processed

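ATAC-seq was done on 3 libraries, 1 per time. Per the submitters' processing notes, the tools included BWA 0.7.17, MACS2 2.2.7 and bedtools 2.30.0, with the build mm10; no source used here gives the options, duplicate handling or read shifts. The authors deposited 1 peak list per library with, for each region, a fold (a ratio over background), −log10 p-value and −log10 q-value and a score. No reads or totals were used, so depth is unknown. Here, regions wholly inside the segment were counted and lists matched at 1 bp overlap, with exact Poisson, Clopper-Pearson or binomial-split 95% intervals, using Python 3.11.15, pandas 2.3.3 and scipy 1.17.1. Overlap calling was tested on simulated lists.

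Loci were RefSeq gene spans (GRCm38.p6) with 10 kb on each side, and a start window ran from 250 bases before to 50 after the start. Strong lost and gained regions went to the nearest gene within 100 kb. Genes named were all members of the classical class I, class II, antigen-processing and class III immune lists, then those with the most or highest strong lost or gained regions, or the largest rank differences. The TNF cluster, neighbouring class II stretches and some start ranks were named after their values were seen. Of 215 list entries, 207 matched a symbol. H2-Q8, H2-Q9 and H2-T18 carry positions outside the segment in the annotation and were not analysed here, and H2-Ab1, Tap2, C2, Cfb, C4b and Lst1 had no start window. The members and lists were chosen with earlier results of these data known.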

Additional observations from a re-analysis of the deposited data

How the results depend on the processing

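Each count and share of the segment was recomputed with regions of fold 10 or more in both lists, with each list cut to its 145044 strongest regions, with a 50% overlap, with regions under 200 bp apart merged, with strong set at a −log10 q of 10, and with the segment limited to chr17:33974659-37483554, the first to the last H2 gene. Region counts at 0 h, 6 h and 72 h with fold 10 or more were 378, 412 and 415, which turned the order of the times. Equal-sized lists gave 746, 720 and 751. The share lost at 6 h was 5.29% with fold 10 or more, 0.234% with equal lists and 0.438% with a −log10 q of 10, and the share gained at 6 h was 12.4% with fold 10 or more. At 72 h the share lost was 16.1% with fold 10 or more, 4.67% with equal lists, 7.28% with merged regions and 6.35% with a −log10 q of 10. The share gained at 72 h was 18.6% with fold 10 or more. Under each of these settings the segment's lost shares at both times and its gained share at 72 h lay below the genome-wide share computed the same way (for 72 h losses with fold 10 or more, 24%). The share gained at 6 h lay above it except with fold 10 or more, where the genome-wide share was 13.6%. Of 66 recomputed ratios of gene lists, 61 stayed inside the interval of the first value and 5, all with fold 10 or more, did not. With 50 kb on each side the class II ratio was 0.954 at 6 h and 0.946 at 72 h, on the other side of 1. No paired analysis was possible because each time has 1 library. Depth, duplicates, near-identical H2, Hsp70 and C4 copies and the unknown haplotype of the line limit what a missing region can show, and their part in the results was not tested.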
